A study of Mus musculus with 6 samples.

Results

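The genes described here are 10 genes of testis determination and of the Sertoli cell, the supporting cell that encloses the germ cells of the testis: the transcription factor genes Sox9, Sox8, Dmrt1, Gata4 and Wt1, the signal genes Amh, Dhh and Fgf9, and the genes Ptgds and Cst9. They were chosen by name, as the genes that could show whether supporting cells differed with the genotype of the germ cells, and every non-control probe whose accession maps to one of them was used. They had 14 probes among the 23374 probes matched to a gene, and made up 10 of 16535 genes with a probe. Gene expression had been measured on 1-colour arrays in whole male gonads of mouse embryos at E14.5, with 2 arrays for each of 3 genotypes. The first genotype, Nanos2+/-, carried 1 null allele and stood as the control. The second, Nanos2-/-, had no functional Nanos2, a gene for an RNA-binding protein made by male germ cells. The third, Nanos2-/-_Tg+, was null for Nanos2 and carried a transgene for 3×FLAG-tagged NANOS2-ΔN10, a form that lacks the first 10 amino acids, driven by the Nanos2 enhancer. The null allele carries LacZ. All embryos had a mixed ICR and N2 background, and no array held a wild-type gonad.

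During testis formation the SRY protein switches on Sox9 in the supporting cell precursors, and SOX9, helped by SOX8, then keeps these cells on the Sertoli path. GATA4 and WT1 act from before this switch and remain in Sertoli cells, while DMRT1 is made in Sertoli cells and also in germ cells. Fetal Sertoli cells in turn signal to their neighbours: anti-Müllerian hormone, the product of Amh, removes the Müllerian ducts, desert hedgehog acts on the interstitial cells that become Leydig cells, and FGF9 and prostaglandin D2 maintain the Sertoli fate.

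The promoters of Dhh and Cst9 are shown because these were the members whose replicate 2 array lay above the replicate 1 array in all 3 genotypes, and because each holds the letters GATAA, the core bound by GATA factors such as GATA4. The sequences are from RefSeq (GRCm38.p6), run 5′ to 3′ along the gene from 250 bases before the start to 50 after it, and have the match in capitals. Dhh lies on the minus strand at chr15:98898491-98898790 and Cst9 on the plus strand at chr2:148834897-148835196.
Dhh: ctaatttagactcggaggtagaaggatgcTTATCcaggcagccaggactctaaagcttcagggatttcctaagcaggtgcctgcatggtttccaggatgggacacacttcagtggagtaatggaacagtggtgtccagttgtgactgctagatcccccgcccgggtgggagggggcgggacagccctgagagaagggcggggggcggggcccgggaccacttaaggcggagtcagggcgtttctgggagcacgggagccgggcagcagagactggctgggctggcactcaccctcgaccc
Cst9: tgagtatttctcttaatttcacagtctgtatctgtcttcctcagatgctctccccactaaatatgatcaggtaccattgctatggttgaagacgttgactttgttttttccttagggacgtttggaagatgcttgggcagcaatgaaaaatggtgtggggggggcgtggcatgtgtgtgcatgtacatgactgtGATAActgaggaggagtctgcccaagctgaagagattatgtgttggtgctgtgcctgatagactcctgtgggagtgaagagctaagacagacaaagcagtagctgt
With the start counted as base 0, the match lay at bases -221 to -217 in Dhh, as TTATC on the printed strand, and at bases -56 to -52 in Cst9. Promoters were at hand for 5 members. Among them the core was also found in Fgf9, at bases -224 to -220 as TTATC, and was not found in Sox8 or Ptgds. Of 32851 promoters of the same length, 25.4% held GATAA on either strand. None of the 5 promoters held ACAAT, the core bound by SOX factors, which 31.0% of all promoters held, or AAGGTCA, the core bound by NR5A1, which 4.72% held. These matches describe the letters only.

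The targeted gene followed the labels. Nanos2, read by 1 probe, had log2 signals of 9.42 and 10.78 in Nanos2+/- and 13.28 and 14.25 in Nanos2-/-_Tg+, and was at the floor of 2.32 and not well above background on both Nanos2-/- arrays. All 14 probes of the 10 genes were well above background on all 6 arrays, so a Sertoli cell signal was present in every gonad and no member was lost to the filter on dim probes. Both Nanos2+/- arrays came from 1 slide, and a second slide held the remaining 4 arrays. Slide and genotype therefore cannot be told apart in the comparisons with Nanos2+/-, whereas Nanos2-/-_Tg+ and Nanos2-/- were compared within a slide. With whole gonads, fewer cells of a type and less RNA per cell cannot be told apart. A signal is given as log2 of the processed spot intensity after scaling each array to a common median. Such signals are compared between arrays for 1 probe, not between probes. The sums over marker lists add up probes, so bright probes weigh most in them.

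Of the transcription factor genes, Sox9, Sox8 and Wt1 and the brighter Gata4 probe had similar signals in the 3 genotypes, and Dmrt1 had higher signals on all 4 arrays without endogenous Nanos2. The plot of the signals by array shows each gene on an axis of the same length.

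**Figure D1:**
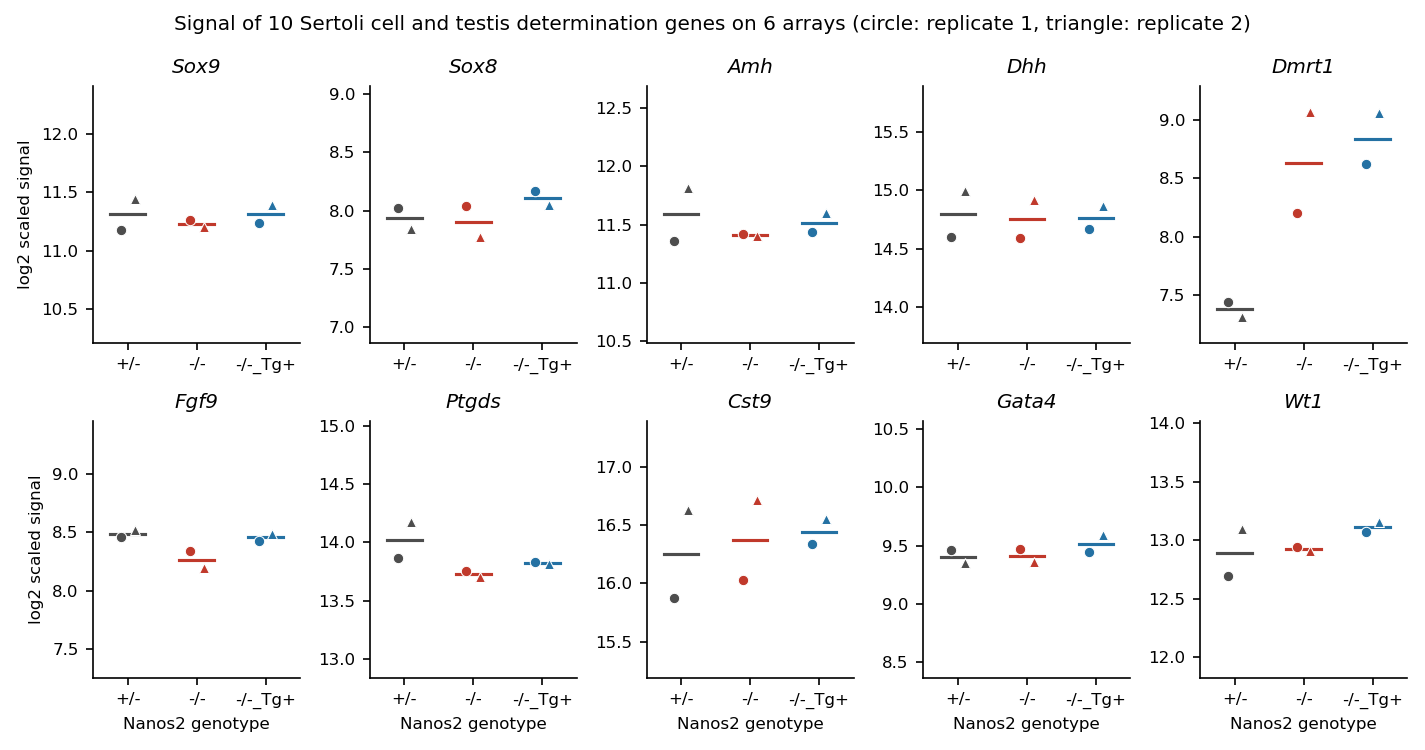
The log2 scaled signal (y axis) of the brightest probe of each of the 10 genes is plotted for the 3 Nanos2 genotypes (x axis), with a circle for replicate 1, a triangle for replicate 2 and a bar for the mean of the 2 arrays. Every y axis covers the same number of log2 units, so distances within a panel can be set against those in another. In the Dmrt1 panel all 4 arrays without endogenous Nanos2, at 8.20 to 9.07, lie above both Nanos2+/- arrays, at 7.44 and 7.32.

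Sox9, the central factor of the Sertoli fate, had log2 signals of 11.18 and 11.44 on the Nanos2+/- arrays, 11.26 and 11.20 on the Nanos2-/- arrays and 11.23 and 11.39 on the Nanos2-/-_Tg+ arrays. The lowest and the highest of the 6 values were both in Nanos2+/-, and the 3 genotypes overlapped. The log2 change was -0.08 in Nanos2-/- against Nanos2+/- (95% interval -0.52 to 0.36) and 0.0034 in Nanos2-/-_Tg+ against Nanos2+/- (-0.44 to 0.45). Sox9 was read by a further 2 probes, with signals from 10.75 to 11.31 and from 5.10 to 5.45, whose genotypes overlapped as well.

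Sox8, a relative of Sox9 that shares its targets, had signals of 8.03 and 7.84 in Nanos2+/-, 8.04 and 7.77 in Nanos2-/- and 8.17 and 8.05 in Nanos2-/-_Tg+. The Nanos2-/-_Tg+ arrays were the highest, but by less than the spread within Nanos2+/- or Nanos2-/-. The log2 change was -0.03 in Nanos2-/- against Nanos2+/- (-0.48 to 0.42) and 0.17 in Nanos2-/-_Tg+ against Nanos2+/- (-0.28 to 0.62). A second Sox8 probe put Nanos2-/-_Tg+ lowest, where Nanos2+/- had a mean of 7.83 ± 0.33, Nanos2-/- 7.92 ± 0.15 and Nanos2-/-_Tg+ 7.64 ± 0.41 (SD, n = 2 each).

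Wt1, a zinc finger factor of the gonadal precursors and of Sertoli cells, was at 12.69 and 13.09 in Nanos2+/-, 12.94 and 12.91 in Nanos2-/- and 13.07 and 13.15 in Nanos2-/-_Tg+. Both Nanos2-/- arrays lay between the Nanos2+/- arrays. The log2 change was 0.03 in Nanos2-/- (-0.44 to 0.51) and 0.22 in Nanos2-/-_Tg+ (-0.25 to 0.70), each against Nanos2+/-.

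Gata4, whose protein works with WT1 and its cofactor FOG2 in Sry and Amh expression, was read by a pair of probes. The brighter probe gave 9.46 and 9.35 in Nanos2+/-, 9.47 and 9.36 in Nanos2-/- and 9.45 and 9.59 in Nanos2-/-_Tg+, and the genotypes overlapped. The dimmer probe gave 8.48 and 8.38 in Nanos2+/-, 8.80 and 8.78 in Nanos2-/- and 8.87 and 9.05 in Nanos2-/-_Tg+. On this probe the 3 genotypes did not overlap, with Nanos2+/- lowest and Nanos2-/-_Tg+ highest. Its log2 change against Nanos2+/- was 0.36 in Nanos2-/- (-0.06 to 0.78, limma adjusted p = 0.621) and 0.54 in Nanos2-/-_Tg+ (0.11 to 0.96, adjusted p = 0.307), whereas the brighter probe changed by 0.0076 and 0.11. The probes of Gata4 thus disagreed, and neither passed the threshold.

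Dmrt1 was the member with the widest differences between genotypes. Its single probe gave log2 signals of 7.44 and 7.32 in Nanos2+/-, 8.20 and 9.07 in Nanos2-/- and 8.62 and 9.06 in Nanos2-/-_Tg+. Both Nanos2+/- arrays lay below all others, the Nanos2-/- arrays were far apart from each other, and the Nanos2-/-_Tg+ arrays lay between them. The means were 7.38 ± 0.09, 8.63 ± 0.61 and 8.84 ± 0.31 (SD, n = 2 each). Relative to Nanos2+/-, the signal was 2.39-fold in Nanos2-/- (95% interval 1.46 to 3.91) and 2.75-fold in Nanos2-/-_Tg+ (1.68 to 4.50). Adjusted over all 26711 probes tested, the limma adjusted p was 0.266 and 0.147, so neither comparison passed the threshold. By its unadjusted p Dmrt1 ranked at 377 and 292 of all probes in the respective comparisons. Between Nanos2-/-_Tg+ and Nanos2-/- the log2 change was 0.20 (-0.51 to 0.92), which was smaller than the distance between the Nanos2-/- arrays, 0.86. Without the higher Nanos2-/- array, replicate 2, the log2 change from Nanos2+/- to Nanos2-/- was 0.82, and without the lower one, replicate 1, it was 1.69, as the plot of Dmrt1 under other processing shows.

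**Figure D2:**
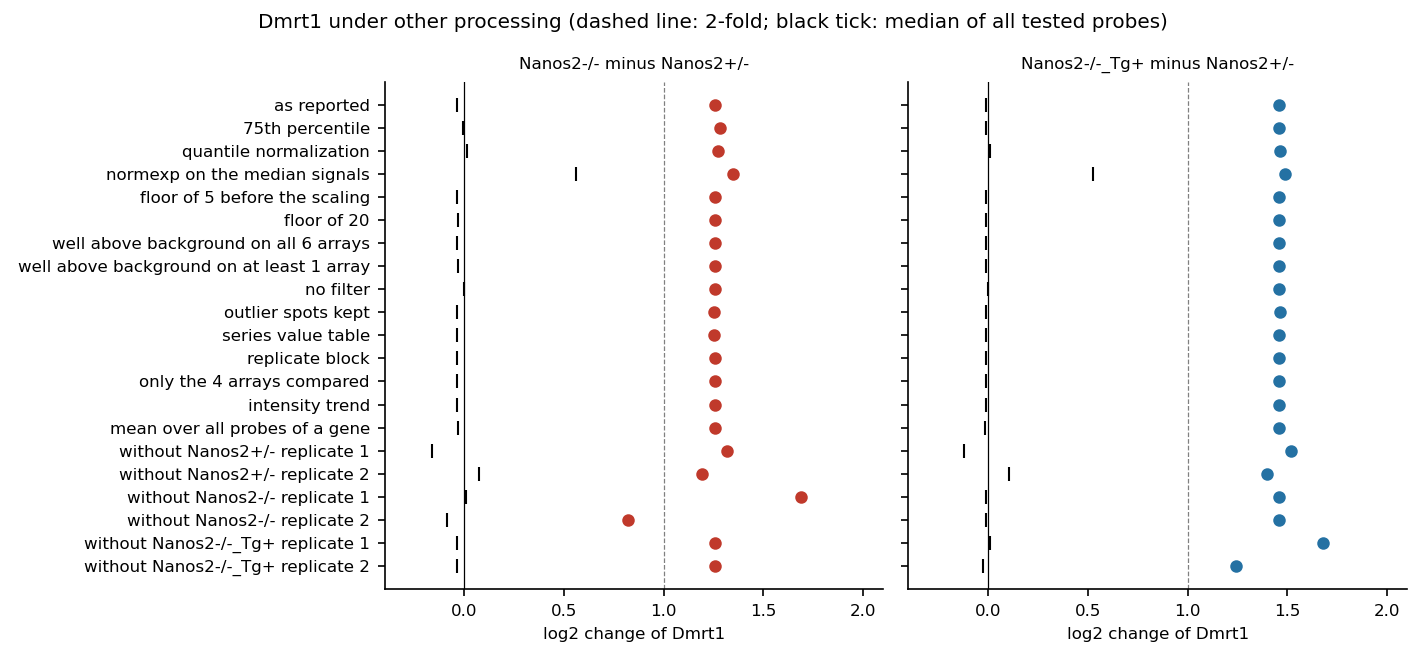
The log2 change of Dmrt1 (x axis, coloured points) against Nanos2+/- is given for each way of processing the arrays (rows), for Nanos2-/- on the left and Nanos2-/-_Tg+ on the right, with the dashed line at 2-fold and a black tick at the median of all tested probes. All points lie above 0, from 0.82 to 1.69 on the left and from 1.24 to 1.68 on the right. The only point below 2-fold is that without Nanos2-/- replicate 2. Rows that alter only the filter, the replicate block, the arrays fitted or the prior variance repeat the reported change.

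Since Dmrt1 is also made by germ cells, the 8 germ cell markers were set beside it. All 8 were well above background. No marker passed the threshold, which 0.0674% of all probes passed in Nanos2-/- and 0.105% in Nanos2-/-_Tg+, each against Nanos2+/-. Against Nanos2+/-, 2 were higher and 6 lower in Nanos2-/- (median log2 change -0.10), and 5 were higher and 3 lower in Nanos2-/-_Tg+ (median 0.08). Their summed scaled signal was 111293 and 150028 on the Nanos2+/- arrays, 105144 and 132866 on the Nanos2-/- arrays and 119464 and 140856 on the Nanos2-/-_Tg+ arrays, so that the genotypes overlapped. The changes ran from -0.81 for Dnd1 to 0.34 for Dazl in Nanos2-/- and from -0.82 for Dnd1 to 0.45 for Dazl in Nanos2-/-_Tg+. Dnd1, an RNA-binding partner of NANOS2 in germ cells, was at 13.54 and 13.76 in Nanos2+/-, 12.75 and 12.92 in Nanos2-/- and 12.88 and 12.79 in Nanos2-/-_Tg+. Both genotypes without endogenous Nanos2 lay below Nanos2+/- for Dnd1, with limma adjusted p = 0.257 and 0.176. Dazl, an RNA-binding protein gene of germ cells, was at 12.80 and 13.74 in Nanos2+/-, 13.46 and 13.78 in Nanos2-/- and 13.67 and 13.78 in Nanos2-/-_Tg+, and its genotypes overlapped. The part of germ cells in the Dmrt1 values was not tested.

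The signal genes of the Sertoli cell, Amh, Dhh and Fgf9, showed no change past the threshold in any comparison. Amh gave 11.36 and 11.82 in Nanos2+/-, 11.42 and 11.40 in Nanos2-/- and 11.43 and 11.60 in Nanos2-/-_Tg+. All 4 arrays without endogenous Nanos2 lay between the Nanos2+/- arrays, and the log2 change was -0.18 in Nanos2-/- (-0.68 to 0.32) and -0.07 in Nanos2-/-_Tg+ (-0.57 to 0.43).

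Dhh was at 14.60 and 14.99 in Nanos2+/-, 14.60 and 14.92 in Nanos2-/- and 14.67 and 14.86 in Nanos2-/-_Tg+. Its genotype means differed by at most 0.04, whereas the replicate arrays of 1 genotype differed by up to 0.39. Replicate 2 was the higher array in every genotype. The log2 change was -0.04 in Nanos2-/- (-0.56 to 0.48) and -0.03 in Nanos2-/-_Tg+ (-0.55 to 0.49), each against Nanos2+/-.

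Fgf9 gave 8.46 and 8.52 in Nanos2+/-, 8.34 and 8.19 in Nanos2-/- and 8.43 and 8.49 in Nanos2-/-_Tg+. Both Nanos2-/- arrays lay below the other 4, while Nanos2+/- and Nanos2-/-_Tg+ overlapped. The log2 change in Nanos2-/- was -0.22 (-0.64 to 0.19, limma adjusted p = 0.782), and in Nanos2-/-_Tg+ it was -0.03 (-0.45 to 0.39). Together with Dmrt1, Fgf9 was 1 of 2 members whose genotype means differed by more than any pair of its replicate arrays, which held for 28.7% of all probes.

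Ptgds encodes the lipocalin-type synthase that makes prostaglandin D2. It was at 13.87 and 14.18 in Nanos2+/-, 13.75 and 13.71 in Nanos2-/- and 13.83 and 13.82 in Nanos2-/-_Tg+. Both Nanos2+/- arrays lay above the other 4, and Nanos2-/- was lowest. The log2 change of -0.29 in Nanos2-/- (-0.74 to 0.15, limma adjusted p = 0.729) was no larger than the distance between the Nanos2+/- arrays, 0.31, and the change in Nanos2-/-_Tg+ was -0.20 (-0.64 to 0.25).

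Cst9 encodes testatin, a secreted relative of the cystatin protease inhibitors made by fetal Sertoli cells. Its signals were 15.87 and 16.63 in Nanos2+/-, 16.03 and 16.71 in Nanos2-/- and 16.34 and 16.55 in Nanos2-/-_Tg+. Replicate 2 was the higher array in each genotype, by 0.76, 0.68 and 0.21, and the genotypes overlapped. The log2 change was 0.12 in Nanos2-/- (-0.63 to 0.86) and 0.19 in Nanos2-/-_Tg+ (-0.55 to 0.94), with the widest intervals of the 10 genes. Replicate 2 was higher in all 3 genotypes for 37.7% of all probes tested, and for Dhh and Cst9 among the members. It was lower in all 3 genotypes for 11.3% of all probes, and for Sox8 among the members. Of the 8 germ cell markers, 5 had the higher array at replicate 2 in every genotype. The labels leave unstated what same-numbered arrays have in common.

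Counted over the 10 genes, no member passed the threshold of an adjusted limma p below 0.05 and at least a 2-fold change in Nanos2-/- against Nanos2+/-, where 0.0674% of all probes did. The count was also 0 in Nanos2-/-_Tg+ against Nanos2+/-, where 0.105% of all probes passed, and 0 in Nanos2-/-_Tg+ against Nanos2-/-, where 0.0187% did. At an unadjusted limma p below 0.05 the counts were 1, 1 and 0 of 10, against 9.08%, 11.6% and 2.74% of all probes, and the member was Dmrt1 in both cases. Dmrt1 also met the 2-fold limit, so that counts of 1, 1 and 0 stood against 2.21%, 2.79% and 0.651% of all probes. With the 2-fold limit and no adjustment the methods' t-test called 0, 1 and 0 members, against 0.573%, 0.876% and 0.15% of all probes. After Benjamini-Hochberg adjustment it called no member and no probe at all (0% in each comparison). That count therefore says nothing about the members in particular. The first pair of comparisons share the Nanos2+/- arrays, so their values are only given side by side.

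**Figure D3:**
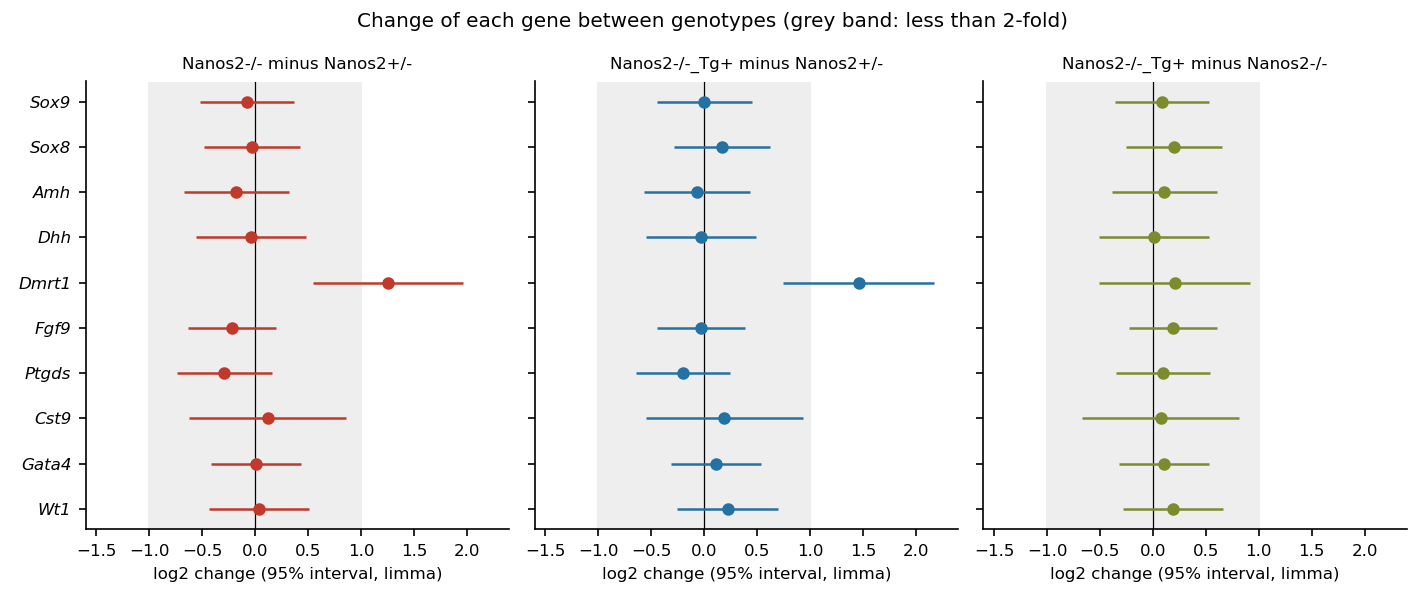
The log2 change (x axis) of each of the 10 genes (y axis, brightest probe) is drawn with its 95% interval from limma for the 3 comparisons, and the grey band marks changes under 2-fold. Dmrt1 alone has intervals that leave the band, at 1.25 and 1.46 against Nanos2+/-, and all other intervals lie within it.

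The intervals cover the spread between replicate arrays under the processing used, and neither slide nor background correction. For 9 of the 10 members the 95% interval, in both comparisons that involve Nanos2+/-, lay within a 2-fold change in either direction, which held for 80.2% of all probes in Nanos2-/- and for 77.5% in Nanos2-/-_Tg+. Between Nanos2-/-_Tg+ and Nanos2-/- all 10 did, against 86.2% of all probes. The intervals reached a median of 0.46 log2 units to each side. With another background correction, normexp, the log2 changes against Nanos2+/- exceeded 2-fold for Cst9 (1.14 in Nanos2-/- and 1.16 in Nanos2-/-_Tg+) and Wt1 (1.02 and 1.15), while the medians over all probes were 0.56 and 0.52. The median change over the members was -0.03 in Nanos2-/- and 0.06 in Nanos2-/-_Tg+, each against Nanos2+/-, and the medians over all probes were -0.04 and -0.01.

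The arrays of the compared genotypes did not overlap for 3 members in Nanos2-/- against Nanos2+/-, with Dmrt1 higher and Fgf9 and Ptgds lower, and for 36% of all probes. In Nanos2-/-_Tg+ against Nanos2+/- they did not overlap for 3 members, with Sox8 and Dmrt1 higher and Ptgds lower, and for 38.9% of all probes. Members were higher in 4 and 6 of 10 cases in these comparisons, against 44.6% and 48.2% of all probes. All these counts use the brightest probe of each gene. The dimmer Gata4 probe was higher without overlap in both comparisons.

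Nanos2-/-_Tg+ and Nanos2-/- were compared within 1 slide. By their brightest probes, all 10 members had the higher mean in Nanos2-/-_Tg+, as did 56.8% of all probes. With 1 array left out the count was as low as 7. With quantile normalization it was 8, and Dhh and Cst9 changed sign (-0.05 each). The log2 changes ran from 0.0095 for Dhh to 0.20 for Dmrt1, with a median of 0.11 against 0.03 for all probes. The arrays did not overlap for Sox8, Amh, Fgf9, Ptgds and Wt1, which is 5 of 10 against 31.4% of all probes. Wt1 and Sox8 had changes of 0.19 (-0.28 to 0.66) and 0.20 (-0.25 to 0.65), and the adjusted limma p of every member was 1. The second Sox8 probe went the other way, at -0.28 (-0.90 to 0.34), and its arrays overlapped. Markers of some other cell types were also mostly higher in Nanos2-/-_Tg+ in this comparison. The counts were 6 of 8 for germ cells (median 0.17), 4 of 5 for interstitial cells (0.21) and 5 of 6 for red blood cells (0.38). For the rest they were 1 of 5 for fetal Leydig cells (median -0.09) and 2 of 5 for endothelial cells (-0.04). Pre-granulosa cells (-0.02), macrophages (0.02) and the mesonephros (0.12) each had 2 of 4. The part of these cell types in the members' values was not tested.

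Genes that act upstream of, beside or in the same cells as the members were described by 3 further lists, drawn beside the members in the plot of changes by list. None of their genes passed the threshold in any comparison. Of all probes, 0.0674% passed in Nanos2-/- against Nanos2+/-, 0.105% in Nanos2-/-_Tg+ against Nanos2+/- and 0.0187% in Nanos2-/-_Tg+ against Nanos2-/-. At such shares a count of 0 says little about these lists.

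**Figure D4:**
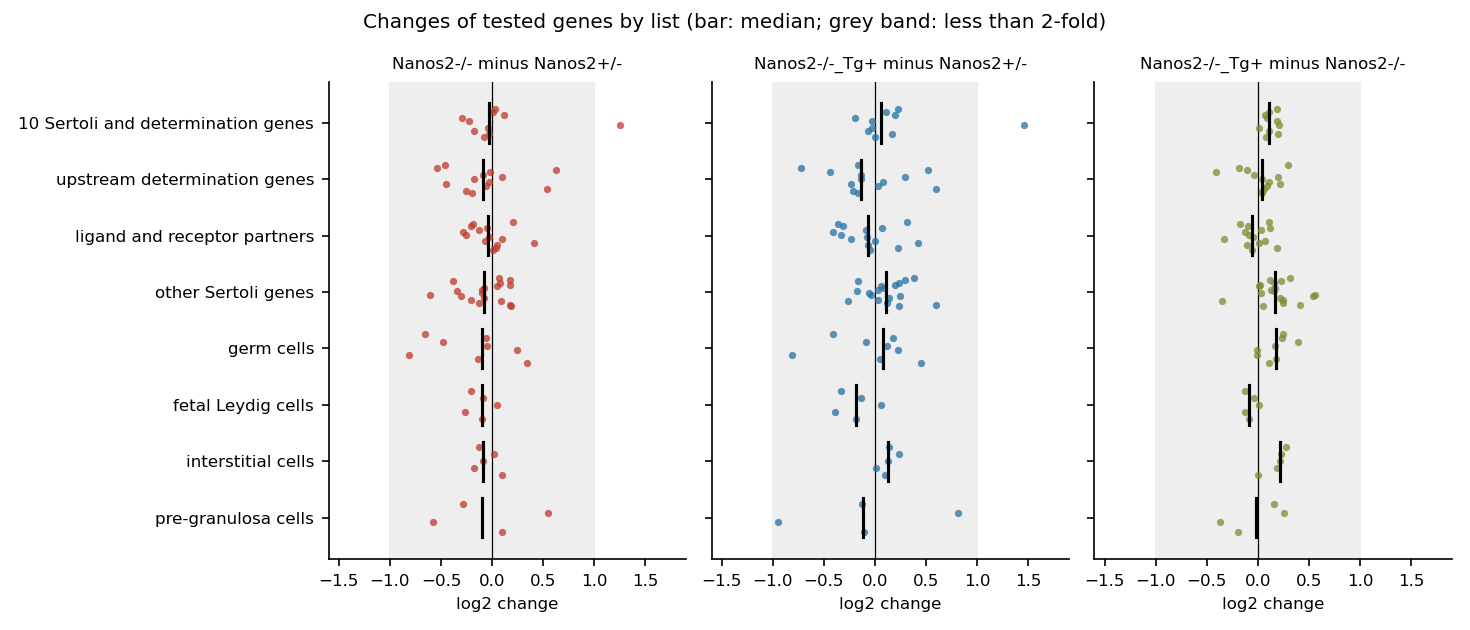
The log2 change (x axis) of every tested gene is shown by list (y axis) for the 3 comparisons, with a point for each gene, a bar at the median of the list and a grey band for changes under 2-fold. The medians of the 10 members and of the Sertoli, determination and partner gene lists lie between -0.14 and 0.16, and Dmrt1 is the point beyond the band in the top row of both comparisons with Nanos2+/-.

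Of 16 genes upstream in testis determination, 13 were tested. Against Nanos2+/-, 3 were higher and 10 lower in Nanos2-/- (median -0.09), and 5 higher and 8 lower in Nanos2-/-_Tg+ (median -0.14). Sry, the switch itself, was at the floor on 5 arrays and well above background on 1 Nanos2-/-_Tg+ array, at 5.06. Sox4, a SOX factor of the early gonad, was at 12.25 and 12.59 in Nanos2+/-, 11.94 and 11.81 in Nanos2-/- and 11.70 and 11.68 in Nanos2-/-_Tg+. The Nanos2+/- arrays were the highest for Sox4, with changes of -0.54 and -0.73 (limma adjusted p = 0.468 and 0.213). Six4 and Emx2, homeobox factors of the gonadal primordium, went the other way. Six4 changed by 0.63 in Nanos2-/- and 0.52 in Nanos2-/-_Tg+ (adjusted p = 0.422 and 0.410), and Emx2 by 0.54 and 0.60 (adjusted p = 0.575 and 0.404). Zfpm2, which encodes the GATA4 cofactor FOG2, changed by -0.46 and -0.17 (adjusted p = 0.603 and 0.841).

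Among 16 ligand and receptor partners of the members, 14 were tested, with 6 higher and 8 lower in Nanos2-/- and 4 higher and 10 lower in Nanos2-/-_Tg+, each against Nanos2+/- (medians -0.04 and -0.07). Ptgdr, a receptor for prostaglandin D2, was not well above background on any array. Ptgdr2, a second receptor for it, was well above background on all 6 arrays. It changed by 0.20 in Nanos2-/- and 0.31 in Nanos2-/-_Tg+ (limma adjusted p = 0.808 and 0.574). Fgfr2, the receptor through which FGF9 acts in the gonad, gave 9.03 and 8.93 in Nanos2+/-, 9.40 and 9.37 in Nanos2-/- and 9.37 and 9.42 in Nanos2-/-_Tg+. All 4 arrays without endogenous Nanos2 lay above Nanos2+/-, by 0.41 and 0.42 in the means (limma adjusted p = 0.553 and 0.423). Gli1, a target gene of hedgehog signalling, changed by 0.10 and -0.24. Inhba, an activin subunit gene, changed by -0.28 and -0.41.

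Of 20 other Sertoli genes, 18 were tested. In Nanos2-/- 8 were higher and 10 lower than in Nanos2+/- (median -0.08), and in Nanos2-/-_Tg+ 13 were higher and 5 lower (median 0.10). Against Nanos2-/-, 17 of the 18 were higher in Nanos2-/-_Tg+ (median 0.16), as were 56.8% of all probes. Most germ cell, interstitial and red blood cell markers were higher as well, but not most markers of the other cell types, as given above. Cldn11, a tight junction gene, was at 10.34 and 10.96 in Nanos2+/-, 10.76 and 10.90 in Nanos2-/- and 11.21 and 11.28 in Nanos2-/-_Tg+. Nanos2-/-_Tg+ was highest for Cldn11, with changes of 0.59 against Nanos2+/- and 0.41 against Nanos2-/- (limma adjusted p = 0.399 and 1). Hsd17b1, a steroid dehydrogenase gene, changed by -0.60 in Nanos2-/- and -0.04 in Nanos2-/-_Tg+, each against Nanos2+/- (adjusted p = 0.749 and 0.985). Its replicates were far apart, at 10.95 and 9.88 in Nanos2+/- and 10.26 and 9.35 in Nanos2-/-, and the genotypes overlapped. Fshr, the receptor gene for follicle-stimulating hormone, changed by -0.30 and 0.24 (adjusted p = 0.841 and 0.838), and Tesc by -0.39 and -0.16 (adjusted p = 0.614 and 0.815).

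The signals of some members rose and fell together over the 6 arrays. Over the 6 arrays the Pearson correlation with Sox9 was 0.95 for Amh, 0.77 for Wt1, 0.69 for Ptgds, 0.65 for Dhh, 0.61 for Fgf9 and 0.52 for Cst9. It was 0.12 for Gata4, -0.14 for Dmrt1 and -0.16 for Sox8. Of 12446 genes well above background on all arrays, the most like Sox9 were Man2a1 at 0.997, Timp1 at 0.995 and Crygc at 0.990. How many of these genes reached the members' correlations was not counted. The correlations describe 6 arrays that share slides and scaling, and the ranges they rest on were narrow: Sox9 itself spanned from 11.18 to 11.44.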

How the data were processed

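Total RNA (0.2 µg per array) of E14.5 male gonads, labelled with Cy3, was hybridized by the authors to whole-genome mouse arrays from Agilent, 2 for each of 3 genotypes. The design describes the replicates as biological duplicates. Genotypes were taken from the sample labels. The deposited scanner files give, per spot, the processed intensity, which the authors' software (Feature Extraction 9.5 per the submitters' processing notes, 9.5.3.1 per the file headers) had corrected for background. The series' own table of values repeats these intensities to within 0.497%. Each array has 45018 spots, 1639 of them controls. Array medians ranged from 66.2 to 96.6, and 64.1% to 66.7% of probes were well above background. The number of arrays limits the precision: 2 against 2 allows no exact two-sided p below 0.333.

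Control spots and outlier spots (54 to 82 per array) were left out, and no spot was saturated. Each array was scaled so that all shared 1 median (50th percentile), values under 5 were set to 5, and the result was taken to log2 and averaged per probe. Tested probes had to be well above background on both replicates of 1 genotype or more (26712 probes, 26711 with values in every genotype). The 3 comparisons were fitted over all 6 arrays with lmFit and eBayes (limma 3.58.1, R 4.3.3), p-values were adjusted by Benjamini-Hochberg over all tested probes, and a call needed an adjusted p below 0.05 and at least a 2-fold change. The fit was tested on simulated data. Where the text gives an adjusted p, it is from this limma fit. The methods' t-test was run here with equal variances, a form not given in the sources used here. Probes were named through their accessions with RefSeq. A gene is given by its brightest probe (highest mean log2 over the arrays), with other probes of members beside it. The text names all members, the 4 genes of each further list with the largest change in any comparison (1 of them is not reported here), Nanos2, the 3 genes most like Sox9, and a few genes singled out after their values were seen (Sry, Ptgdr, Dnd1, Dazl, Rspo1, Fst). The members and lists were chosen with earlier results of these data known. Alternatives covered scaling, background, floor, filter, outlier spots, value table, replicate block, arrays fitted, prior variance, test, probe choice and leaving out each array. Figures were drawn with matplotlib (Python).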

Additional observations from a re-analysis of the deposited data

How the results depend on the processing

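The count of members called was 0 in every comparison and under every alternative run, other than the methods' t-test without adjustment, which called 1 member, Dmrt1, in Nanos2-/-_Tg+ against Nanos2+/-. Dmrt1 kept its direction against Nanos2+/- throughout, with an adjusted p between 0.110 and 0.905 in Nanos2-/- and between 0.0595 and 0.768 in Nanos2-/-_Tg+. The replicate numbers come with no statement of what they share, and same-numbered arrays deviated together (correlations 0.355, 0.313 and 0.259 of the replicate differences); with the replicate number as a block, 0, 0 and 0 members were called, and Dmrt1 had an adjusted p of 0.122 and 0.0692 against Nanos2+/-. The median change over the members stayed within 0.12, the SD between replicate arrays, other than in the following cases. Normexp on the median signals, chosen after seeing the data because the files hold no mean signal, gave 0.79 in Nanos2-/- and 0.83 in Nanos2-/-_Tg+ against Nanos2+/-, while the median of all probes moved to 0.56 and 0.52. Without Nanos2+/- replicate 1 the medians were -0.22 and -0.094. Leaving out 1 array at a time gave -0.22 to 0.051, -0.094 to 0.15 and 0.030 to 0.18 in the 3 comparisons. The alternatives of filter, replicate block, arrays fitted, prior variance and test gave other p-values for the same changes. The changes of Dmrt1 and the other members could therefore move only under the remaining alternatives. Signs of uncalled changes turned as follows, and the cause was not tested. With normexp the changes in Nanos2-/- against Nanos2+/- were 0.83 for Sox9, 0.41 for Sox8, 0.75 for Amh, 0.96 for Dhh, 0.31 for Fgf9 and 0.71 for Ptgds, Sox8 and Fgf9 were then below the median of all probes, and Cst9 and Wt1, whose sign held, were at 1.14 and 1.02. In Nanos2-/-_Tg+ they were 0.78 for Amh, 0.91 for Dhh, 0.47 for Fgf9 and 0.79 for Ptgds, with Cst9 at 1.16 and Wt1 at 1.15, and Dhh was -0.052 against Nanos2-/-. Quantile normalization gave 0.081, 0.027 and -0.054 for Dhh in the 3 comparisons and -0.052 for Cst9 in Nanos2-/-_Tg+ against Nanos2-/-, and the 75th percentile gave -0.018 for Dhh there. The mean over all probes of Sox8 gave 0.028, -0.011 and -0.039. Leaving out 1 array, the changes in Nanos2-/- against Nanos2+/- ran from -0.21 to 0.051 for Sox9, -0.16 to 0.11 for Sox8, -0.41 to 0.052 for Amh, -0.24 to 0.16 for Dhh, -0.26 to 0.50 for Cst9, -0.048 to 0.064 for Gata4 and -0.17 to 0.23 for Wt1. In Nanos2-/-_Tg+ against Nanos2+/- they ran from -0.13 to 0.13 for Sox9, -0.30 to 0.16 for Amh, -0.23 to 0.17 for Dhh, -0.062 to 0.0012 for Fgf9 and -0.19 to 0.57 for Cst9. Against Nanos2-/- they ran from -0.15 to 0.17 for Dhh, -0.23 to 0.64 for Dmrt1 and -0.27 to 0.42 for Cst9. With 2 arrays per genotype, the intervals cover replicate error under 1 way of processing only.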

Other observations

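Markers of the female supporting cell lineage were measured beside the members. Foxl2 and Irx3 were not well above background on any array, and 4 of the 6 pre-granulosa markers were tested. Against Nanos2+/-, 2 were higher and 2 lower in Nanos2-/- (median -0.10), and 1 was higher and 3 lower in Nanos2-/-_Tg+ (median -0.12). Their summed signal was 11299 and 18679 on the Nanos2+/- arrays, 18609 and 20321 on the Nanos2-/- arrays and 21734 and 24495 on the Nanos2-/-_Tg+ arrays, and was mostly that of Rspo1, at 13.12 to 14.42 on the log2 scale. Rspo1 and Fst, singled out after their values were seen, went opposite ways. Rspo1, a WNT signalling activator gene, changed by 0.55 in Nanos2-/- and 0.81 in Nanos2-/-_Tg+ against Nanos2+/- (limma adjusted p = 0.621 and 0.310). It was at 13.12 and 13.92 in Nanos2+/-, 13.99 and 14.15 in Nanos2-/- and 14.42 and 14.24 in Nanos2-/-_Tg+. Its Nanos2+/- arrays thus lay farther apart than its change in Nanos2-/-. Fst, the gene of the activin antagonist follistatin, changed by -0.58 and -0.95 (limma adjusted p = 0.499 and 0.178). No pre-granulosa marker passed the threshold, which 0.0674% of all probes passed in Nanos2-/- and 0.105% in Nanos2-/-_Tg+, each against Nanos2+/-.

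The fetal Leydig cell markers, 5 of 6 tested, had median changes of -0.10 in Nanos2-/- and -0.19 in Nanos2-/-_Tg+ against Nanos2+/-, and the 5 interstitial markers had -0.09 and 0.13. For endothelial cells the medians were -0.14 and 0.08, for macrophages -0.10 and -0.05, for the mesonephros -0.41 and -0.28, and for red blood cells -0.08 and 0.26. In Nanos2-/-_Tg+ against Nanos2-/- the medians were -0.02 for pre-granulosa cells, -0.04 for endothelial cells, 0.02 for macrophages and 0.12 for the mesonephros. No gene of these lists passed the threshold, which at most 0.105% of all probes passed in any comparison.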
